A study of Mus musculus with 2 samples.

Results

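The genes described here are 10 regulators of the actin cytoskeleton that leukocytes express, Lsp1, Coro1a, Was, Dock2, Lcp1, Arpc1b, Rac2, Evl, Arhgdib and Tmsb4x. They were taken by their gene symbol from 16504 genes that the array measured, and each was read by 1 feature. They were chosen by the log ratios described below, which were already known when the list was made, so every value is a description. The samples were thymocyte RNA from mice null for the gene studied (-/-) and from wild-type mice (+/+), pooled from 3 mice per genotype. Both pools were labelled in either dye and compared on 2 arrays as a dye swap, which is 1 replicate of 1 pool per genotype, so no test across samples was possible. The spread between mice was not measured. Strain, age and sex of the mice are not given in the sources used here. The source is labelled thymus and the description names thymocytes, the developing T cells of that organ. The deposited values are ratios without levels, so the labelled cell type could not be checked by the presence of its markers.

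All values are log2 ratios of null over wild type, on which -1 means 2-fold lower in the null pool. On the first array the null pool was labelled with Cy5, and on the second with Cy3. Pairs of values are given in that order, and each SD is the technical spread between the 2 arrays. The direction is likely and not stated with the data: it rests on the dye labels and on the zeros of the second column, which are written as negated. A gene was called lower or higher when both arrays gave a difference of 1.5-fold or more (0.58 on the log2 scale) with the same sign. The arrays correlated weakly over genes (Pearson's r = 0.238, across genes, which are not independent replicates), and negatively over all features (r = -0.447). The latter includes features that could not be given a single gene symbol (r = -0.86), of which 474 went at least 2-fold opposite ways. Features with 1 symbol gave r = 0.216.

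Actin filaments give a thymocyte its shape and drive its crawling between cortex and medulla and its contact with presenting cells. Receptor signals reach actin through exchange factors that load Rac and Cdc42 with GTP. These GTPases release WASP and WAVE proteins, which switch on the Arp2/3 complex, the nucleator of branched filaments. Other proteins hold monomers in reserve, extend filaments, bundle them or recycle old branches. Many of these proteins come as a leukocyte form beside a paralogue found in most tissues.

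One of the 10 genes differed and the others did not pass the rule. Lsp1, a filament-binding protein of leukocytes, was 4.57-fold lower in the null pool, the third lowest of 16504 genes. This fold takes the deposited values as log10, and it would be 1.58 if they were log2 and 1.93 if natural logs. Its direction and rank rest on the likely reading of the second column, and on the other reading Lsp1 would stand at 0.12 with rank 13540 from the lowest. Over all genes, 1.11% were called lower and 0.412% higher, against 1 and 0 of the 10 members. Since the members were listed from this same contrast, nothing is read from that count. The median of the 10 was -0.18, with -0.29 on the first array and -0.20 on the second, beside a median of 0.00093 over all genes. Without Lsp1 it was -0.11. The members Lsp1, Tmsb4x, Evl, Arhgdib and Dock2 lay below 0 on both arrays, Coro1a lay above 0 on both, and Was, Arpc1b, Rac2 and Lcp1 lay on opposite sides. Over all genes, 25.0% lay below 0 on both arrays and 25.0% above, with the rest on opposite sides. At 2-fold on both arrays Lsp1 was called with 0.261% of all genes, and at the lower threshold of 0.32 on the log2 scale Lsp1 and Evl were called with 2.90%. A ratio from pooled cells cannot tell fewer cells of a type from less RNA per cell.

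**Figure D1:**
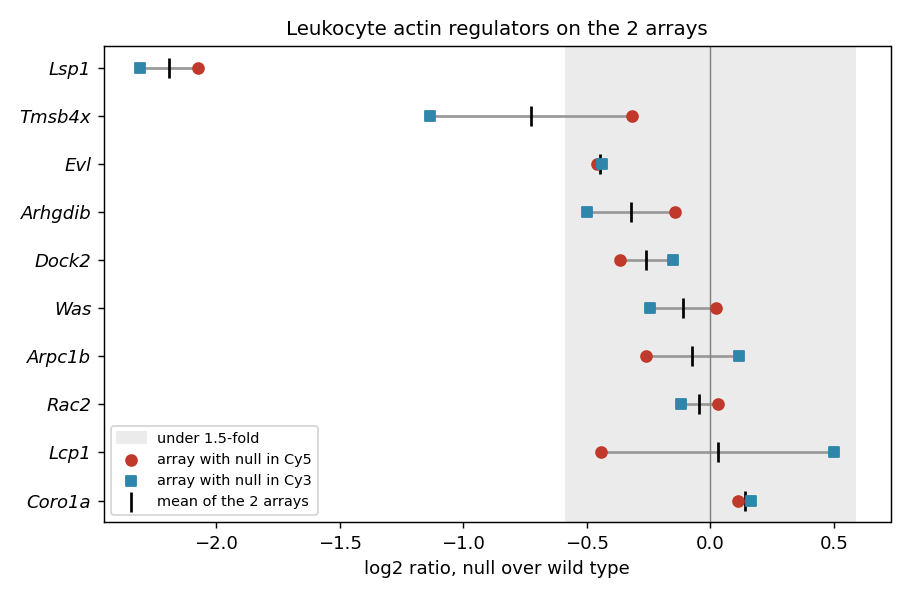
Log2 ratio of null over wild type for each of the 10 genes on the array with null in Cy5 (red circles) and for null in Cy3 (blue squares), with the mean of both as a black tick and the range under 1.5-fold shaded. Lsp1 lies near -2.19 on both arrays, Tmsb4x leaves the shaded range on 1 array, and the other 8 genes stay within it on both.

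RefSeq promoter entries of build GRCm38.p6 were matched for 8 of the 10 genes, with 13 start sites in all, each covering 250 bases before to 50 bases after a start. Lsp1 and Rac2 were not matched. Those shown belong to Tmsb4x, which had the lowest mean after Lsp1, to Evl, whose arrays differed least, and to Coro1a, the member above 0 on both arrays. They are printed in the direction of the gene, with capitals marking a searched motif. The motifs were the ETS cores CCGGAA and GAGGAA and the nuclear receptor half-site AGGTCA searched on both strands, and each window shown holds 1 match. The Tmsb4x promoter lies at chrX:167209169-167209468 on the minus strand. The Evl starts lie at chr12:108554470-108554769 and chr12:108605516-108605815 on the plus strand, and the Coro1a start shown at chr7:126704171-126704470 on the minus strand. Coro1a has another start in the table, which holds none of the 3 motifs and is not printed.
Tmsb4x: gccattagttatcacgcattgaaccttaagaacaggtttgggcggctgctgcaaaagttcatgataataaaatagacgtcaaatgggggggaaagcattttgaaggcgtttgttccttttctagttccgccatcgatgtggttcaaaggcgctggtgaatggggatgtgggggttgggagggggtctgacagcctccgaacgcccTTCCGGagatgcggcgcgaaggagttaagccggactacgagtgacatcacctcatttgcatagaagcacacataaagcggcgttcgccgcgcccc
Evl, upstream start: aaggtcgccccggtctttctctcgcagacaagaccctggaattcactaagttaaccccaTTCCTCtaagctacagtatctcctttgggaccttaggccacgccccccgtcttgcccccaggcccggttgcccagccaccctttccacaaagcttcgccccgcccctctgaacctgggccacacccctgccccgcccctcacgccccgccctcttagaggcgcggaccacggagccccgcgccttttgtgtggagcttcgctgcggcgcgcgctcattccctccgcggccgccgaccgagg
Evl, downstream start: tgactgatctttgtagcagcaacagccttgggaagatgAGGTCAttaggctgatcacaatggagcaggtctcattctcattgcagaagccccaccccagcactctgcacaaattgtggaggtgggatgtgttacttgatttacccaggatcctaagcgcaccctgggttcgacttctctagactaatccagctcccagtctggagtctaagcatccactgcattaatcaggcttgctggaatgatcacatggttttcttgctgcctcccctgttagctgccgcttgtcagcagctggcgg
Coro1a: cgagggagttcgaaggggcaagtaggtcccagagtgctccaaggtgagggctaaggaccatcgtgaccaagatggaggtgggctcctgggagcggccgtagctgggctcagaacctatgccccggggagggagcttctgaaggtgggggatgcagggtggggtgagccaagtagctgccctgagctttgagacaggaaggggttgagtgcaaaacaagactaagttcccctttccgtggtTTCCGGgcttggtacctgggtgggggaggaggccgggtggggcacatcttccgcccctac
The first base of the motif stands at -45 from the start site in Tmsb4x, at -191 and -212 in the Evl starts, and at -10 in Coro1a. Of the 13 member promoters, 3 hold CCGGAA, from Coro1a, Dock2 and Tmsb4x, against 14.9% of 32851 promoters in the table. GAGGAA was found in 5 of the 13, from Arhgdib, Arpc1b, Dock2, Evl and Was, against 28.3%. AGGTCA was found in 1 of the 13, the downstream Evl start, against 16.3%. These are matches of letters in short windows. CCGGAA was held by Coro1a, above 0 on both arrays, and by Dock2 and Tmsb4x, below 0 on both. The holders of GAGGAA all had means below 0, though for Was and Arpc1b the sign differed between arrays. Of the 8 genes with an entry, only Coro1a and Lcp1 had means above 0, whatever motif they held. AGGTCA was held only by Evl, below 0 on both. Whether a motif goes with the direction of a gene was not tested.

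Among the proteins that bind filaments, Lsp1 stood apart from Evl, Lcp1 and Coro1a. Lsp1 read -2.07 on the first array and -2.31 on the second, a mean of -2.19 (SD 0.17). These are 4.21-fold and 4.96-fold lower, so the gap between the arrays was small beside the ratio. Evl, an Ena/VASP protein that keeps filament ends growing, read -0.46 and -0.44, a mean of -0.45 (SD 0.014). The arrays nearly coincided for Evl, though both values fall short of 1.5-fold. Lcp1, or L-plastin, bundles filaments in leukocytes, and read -0.44 and 0.50, a mean of 0.031 (SD 0.67). Its arrays point opposite ways by similar amounts, so no direction can be given. Coro1a, coronin 1A, sheds old Arp2/3 branches and is needed for T cells to leave the thymus in mice. It read 0.11 and 0.17, a mean of 0.14 (SD 0.037), which is a small value with the arrays close together.

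The genes on either side of Lsp1 on its chromosome did not share its ratio. Of the 3 nearest measured genes on each side, by gene order in RefSeq, none was called, and their means ran from -0.12 to 0.29. Tnni2, a troponin of fast muscle, read -0.29 and 0.05, and Tnnt3, another, read 0.03 and 0.23. The genes whose pair of values lay nearest to that of Lsp1, by Euclidean distance over the 2 arrays, were Cd69 (distance 0.22), Nabp1 (0.31) and Egr1 (0.34). With 2 arrays of the same pools, such nearness says only that the ratios have similar size. Cd69, a surface protein that thymocytes gain on positive selection, had a mean of -2.06 (SD 0.062). Egr1, an early target of T cell receptor signals, had a mean of -1.98 (SD 0.0079). Nabp1, which binds single-stranded DNA, had a mean of -2.22 (SD 0.47).

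**Figure D2:**
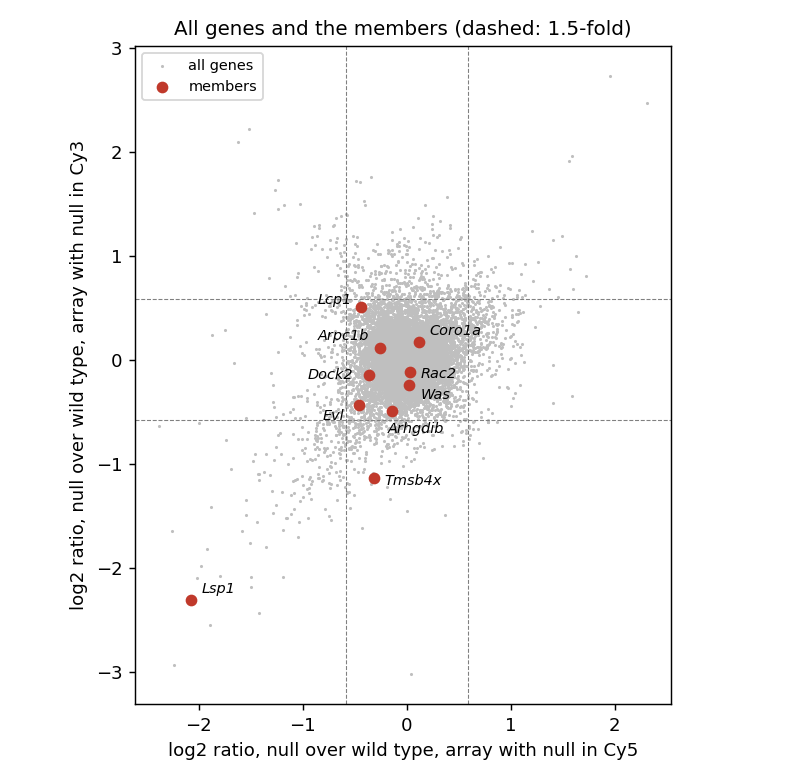
Log2 ratio of null over wild type on the array with null in Cy5 (horizontal) against the array with null in Cy3 (vertical) for all 16504 genes (grey) and the 10 members (red), with 1.5-fold as dashed lines. Lsp1 lies in the lower left corner among few other genes, while the other 9 members lie in or beside the cloud around 0.

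Tmsb4x encodes thymosin beta 4, a small peptide that holds actin monomers in reserve. It read -0.32 on the first array and -1.14 on the second, a mean of -0.73 (SD 0.58). Its second array passed 1.5-fold and its first did not, so it was not called. Its paralogue Tmsb10, thymosin beta 10, was lower at -1.11 and -1.30, a mean of -1.20 (SD 0.13). Thymosin transcripts resemble one another, and whether the 2 features read only their own gene was not examined.

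The Rac branch gave small values throughout. Rac2, the Rac GTPase of blood cells, read 0.030 and -0.12, a mean of -0.045 (SD 0.11). Dock2, the exchange factor that loads Rac in lymphocytes when chemokines act on them, read -0.37 and -0.15, a mean of -0.26 (SD 0.15). Arhgdib, a dissociation inhibitor that keeps Rac in the cytosol in its GDP form, read -0.14 and -0.50, a mean of -0.32 (SD 0.25). Dock2 and Arhgdib lay below 0 on both arrays and Rac2 straddled it. The members of the nucleation branch had means nearer 0 than those of Dock2 and Arhgdib. The Was gene, which encodes the WASP protein lost in Wiskott-Aldrich syndrome, read 0.025 and -0.24, a mean of -0.11 (SD 0.19). Arpc1b, the Arp2/3 subunit that prevails in blood cells, read -0.26 and 0.12, a mean of -0.072 (SD 0.27). In both, as in Rac2, the difference between the arrays divided by 2 was larger than the mean, at 1.23, 2.61 and 1.66 times its size for Was, Arpc1b and Rac2.

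Members were next set against paralogues of wider expression, in 11 pairs with both genes measured. The member lay below its paralogue on both arrays in 3 pairs, above it on both in 1, and the arrays ordered the pair in opposite ways in 7. Evl lay below both of its relatives. Its difference of log2 ratios was -0.59 and -0.35 from Enah (mean -0.47, SD 0.17) and -0.20 and -0.45 from Vasp (mean -0.33, SD 0.18), with Enah itself at 0.023 and Vasp at -0.12. Arpc1b lay below Arpc1a, the form found in most tissues, by differences of -0.31 and -0.12 (mean -0.21, SD 0.13). Tmsb4x lay above Tmsb10 by 0.79 and 0.16 (mean 0.48, SD 0.44). Rac2 and Rac1 differed by -0.16 and 0.016, and Was differed from Wasl, the widely expressed N-WASP gene, by 0.22 and -0.26. The arrays also disagreed in sign for Dock2 against Dock1, for Coro1a against Coro1b and Coro1c, and for Lcp1 against the plastins Pls3 and Pls1. None of these paralogues other than Tmsb10 was called. Lsp1 was given no paralogue, and Arhgdia was not analysed here.

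**Figure D3:**
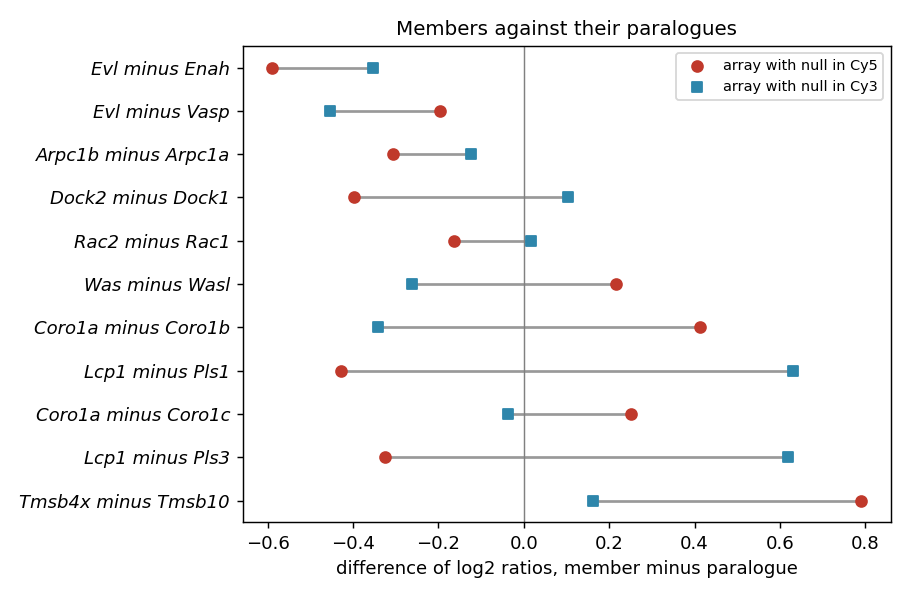
Difference of log2 ratios, member minus paralogue, for 11 pairs on the array with null in Cy5 (red circles) and the array with null in Cy3 (blue squares). Both Evl pairs and the Arpc1b pair lie below 0 on both arrays, the thymosin pair lies above, and the other 7 pairs cross 0.

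The wider actin machinery was described with 5 lists, which hold 115 measured genes. Of these, 3 were called lower, Lsp1, Tmsb10 and Fscn1, and none was called higher, against 1.11% and 0.412% of all genes. Fscn1, fascin, packs filaments into tight bundles and is abundant in mature dendritic cells. It read -1.09 and -0.71, a mean of -0.90 (SD 0.27). Leaving out the 10 members, the other 105 genes had a median of -0.086, with 35 below 0 on both arrays, 9 above and 61 on opposite sides. Over all genes, 25.0% lay below and 25.0% above. Such a lean was not particular to actin genes. Of 18 thymocyte markers, 12 lay below on both arrays and 2 above, and of 18 pan-leukocyte genes 11 and 1. The 11 neutrophil markers leaned the other way, with 0 below and 9 above.

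None of the 24 measured genes of the Arp2/3 complex and its activators was called, and their median was -0.094. Their means ran from -0.44 to 0.14. The lowest was Wasf2, a WAVE protein that relays Rac to Arp2/3, at -0.35 and -0.52. Its complex partners Cyfip2 and Nckap1l, the latter being the leukocyte form HEM1, had means of -0.32 (SD 0.24) and -0.31 (SD 0.28). Subunits of the Arp2/3 complex itself scattered around 0. Arpc4 read -0.54 and 0.77, Arpc5 0.021 and -0.59, and Actr3 0.22 and -0.43, so their arrays differed in sign. The arrays also differed in sign for Arpc1b and Arpc2. Arpc1a, at 0.045 and 0.24, and Arpc5l, at 0.033 and 0.22, lay above 0 on both.

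The 20 genes that bind monomers, cap or sever filaments had a median of -0.19. Of these, 10 lay below 0 on both arrays and none above, beside the same 25.0% each way over all genes. The 12 markers of thymic epithelium, a list without actin genes, gave 8 below and 0 above. Tmsb10 was the only gene of the 20 called. Cap1, which frees monomers from cofilin, read -1.55 and -0.56 and fell just short on the second array. Pfn1, profilin, and Cfl1, cofilin, had means of 0.052 (SD 0.16) and -0.10 (SD 0.26). Among the 26 genes that bind, bundle or extend filaments the median was -0.039. Coro7, a coronin of the Golgi, read -0.48 and -0.44, close to the values of Evl.

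Actin itself gave no common direction. Actb, beta actin, read 0.40 and -0.47, a mean of -0.036 (SD 0.61), and Actg1, gamma actin, read 0.076 and -0.11, a mean of -0.017 (SD 0.13). None of 14 measured actins, myosins and membrane linkers was called, with a median of -0.049. Integrins and their adaptors, through which actin grips the outside of the cell, had a median of -0.13 over 20 genes. Of these, Itgb2, the beta 2 integrin subunit of leukocytes, was lower at -0.80 and -0.65. Its partner Itgal, the alpha chain of LFA-1, read -0.85 and -0.26 and was not called.

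**Figure D4:**
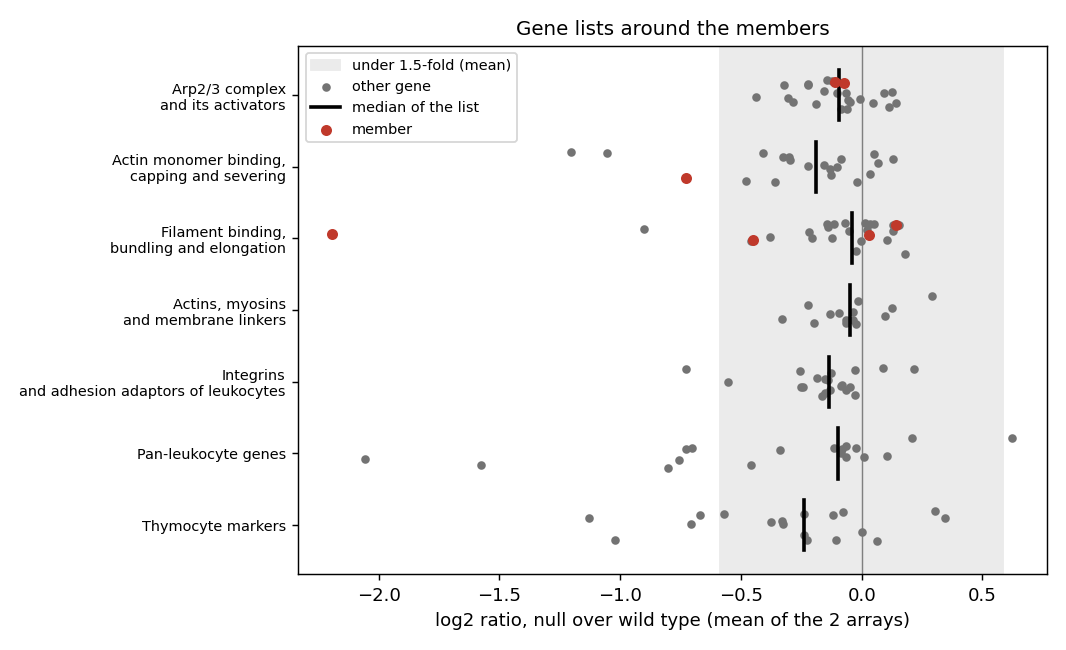
Mean log2 ratio of null over wild type over both arrays for each measured gene of 7 lists, with members in red, other genes in grey, the median of each list as a black line and the range under 1.5-fold shaded. The 4 actin lists shown have medians between -0.19 and -0.039, and Lsp1 is the lowest gene among them.

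Some leukocyte genes and some markers of several cell types were called lower in the null pool, and some neutrophil markers higher. In every list most genes were not called, and numbers of cells were not measured. The shares over all genes, 1.11% lower and 0.412% higher, are the background for each count. Of 18 measured genes listed as pan-leukocyte, 6 were lower, with a median of -0.099 and means from -2.06 to 0.62. They were Cd69, Cd52, Cd53, Itgb2, Inpp5d and Ptprc, and none was higher. Cd69, the lowest of the list, is a protein that thymocytes gain on positive selection, so it does not stand for leukocytes at large. Ptprc, the CD45 phosphatase of leukocytes, read -0.73 and -0.78. Of 18 thymocyte markers, Satb1, Rag1 and Cd4 were lower, with a median of -0.24 and means from -1.13 to 0.34. Of 17 markers of macrophages and dendritic cells (means from -0.87 to 0.22), H2-Eb1, Ctss and Cd74 were lower. Of 11 B cell markers (means from -1.34 to 0.026), Jchain, Fcrla and Cd79a were lower. Of 12 markers of thymic epithelium (means from -1.30 to 0.056), Fezf2, Krt5 and Epcam were lower. Of 14 fibroblast and endothelium markers (means from -1.18 to 0.12), Postn was lower. Of 11 neutrophil markers (means from -0.061 to 1.34), Ngp, S100a8, S100a9 and Camp were higher. None of 6 erythroid markers was called (means from -0.75 to 0.13). Lsp1 is known from lymphocytes, macrophages and neutrophils, so these markers stand beside its ratio, and their part in it was not tested.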

How the data were processed

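Labelled RNA of the 2 pools was hybridised to 2 Agilent mouse arrays and read with Agilent Feature Extraction 7.1 at default settings, per the submitters' processing notes and the series' design text. The deposited values are log ratios of the dyes made by that software and were taken as log10, its convention, since no source used here gives the base. All were converted to log2. Exact zeros are written 0 in the first column (80) and -0 in the second (82), so the second column was read as already turned to null over wild type. Whether both columns were centred is unknown. Their deposited medians were -0.00141 and 0.00112. Over 1030 genes with 2 features, the correlation between features was 0.326 for array means and 0.0386 for the difference of the arrays divided by 2.

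Of 22393 features, 18218 had 1 symbol, 16 several and 4159 none in the platform annotation. Symbols were updated by gene ID through RefSeq (GRCm38.p6) for 18175 features, and features of a gene were averaged. The members and lists were chosen with earlier results of these data known. Genes named are the members, their paralogues, up to 4 called genes per list and direction, the 3 genes nearest to Lsp1, Actb, Actg1 and Ptprc. Wasf2, Cyfip2, Nckap1l, Arpc2, Arpc4, Arpc5, Arpc5l, Actr3, Cap1, Pfn1, Cfl1, Coro7, Itgal, Inpp5d and the neighbours of Lsp1 were named after their values were seen. Precision is limited by the number of arrays. The file holds no intensities. Alternatives were centring, each array alone, the most changed feature, other thresholds, the base of the logs, and the second column read unturned. The targeted gene is not reported here. Python 3.11.15, numpy 2.4.6, pandas 2.3.3 and matplotlib 3.10.9 were used.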

Additional observations from a re-analysis of the deposited data

How the results depend on the processing

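No paired analysis was possible because both arrays compare 1 pool per genotype. Lsp1 was called lower with centring, at 2-fold and on each array alone, and no member was called higher in any setting tried. On single arrays the members called lower numbered 1 to 2, the second being Tmsb4x with null in Cy3, and their median ran from -0.29 to -0.20. On single arrays 7 to 9 genes of the 5 actin lists were called lower, and the member lay below its paralogue in 6 to 7 of 11 pairs. The share of all genes called on a single array was not computed. The single-array counts of members and actin genes therefore have no background, and the 1.11% applies only to calls on both arrays. At a threshold of 0.32 on the log2 scale, 2 members were called lower, Lsp1 and Evl. Read as log2 or natural logs, the deposited values gave a median of -0.055 or -0.080. Leaving out Lsp1, which was chosen after seeing the data, gave -0.11. If the second column were raw Cy5 over Cy3, Lsp1 would stand at 0.12, the median at 0.032, and 0 members and 0 genes of the actin lists would be called lower. Of 14 list medians, centring moved 0 by 1 SD between arrays or more, the most changed feature 1, and the single arrays 6 and 7. Each member has 1 feature, so the choice of feature could not move it.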
